A study of Rattus norvegicus with 8 samples.

Results

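The genes described here were 40 genes of the cell cycle and of DNA replication, listed by symbol with earlier results of these data known, in livers of male Sprague-Dawley rats. Each gene was read from 1 probe set of the Affymetrix Rat230_2 array, the brightest one (by its mean over the 8 arrays) among the probe sets annotated with a single symbol. Of the 40 genes, 38 had such a probe set, out of 14217 single-symbol genes on the array. Rrm2, whose probe sets carry several symbols, and Btg2 were not analysed here. The livers fell into 4 groups of 2 arrays. In the vehicle group, rats were gavaged for 3 days with a Tween 80, hydroxypropyl methylcellulose and phosphate solution and injected into muscle with saline on the last day. In the Dex group, the same gavage was followed by 1.5 mg/kg of dexamethasone, a synthetic glucocorticoid that activates the glucocorticoid receptor. In the GW3965 group, the gavage held 50 mg/kg of GW3965, a synthetic agonist of the liver X receptors (LXRs), and saline was injected. In the Dex+GW3965 group, both agents were given. Livers were taken 24 hours after the injection from all groups. The comparison asks how activation of LXRs alters the response of the liver to a glucocorticoid. In the labels a group has 1 liver number, and its arrays differ by a letter (a or b), whereas the methods speak of separate animals for each treatment, so the p-values may measure only technical spread.

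Cells leave rest and enter the cycle through G1, in which D-type cyclins bind CDK4 and CDK6 and inactivate the retinoblastoma protein. This frees E2F factors to switch on the genes of DNA replication, among them the MCM helicase loaded at origins. Cyclin B with CDK1 then drives mitosis, while inhibitors such as p21 (Cdkn1a) and p27 (Cdkn1b) hold the kinases back. Hepatocytes of an adult rat are nearly all at rest but keep the capacity to divide after injury, and MYC and cyclin D1 are among the genes that accompany their return to the cycle.

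Levels are log2 values as deposited. Array medians spanned 0.0357 and had a mean of 5.49. No detection calls were used, so a level below the array median is called dim here and its true level is uncertain. Of the 38 genes, 16 were above the median on all 8 arrays. At the other end, 9 were above it on none, which were Ccna2, Cdk6, Mki67, Aurkb, Bub1b, E2f1, Tyms, Gmnn and Birc5, and Top2a was above it on 1. A probe set entered the test where 2 or more arrays showed it above the array's median, and this held for 28 of the 38 genes among 16253 probe sets. Of these 28, 9 exceeded the median only on arrays without Dex (Ccnb1, Ccnb2, Cdk1, Cdkn3, Mcm4, Mcm6, Aurka, Cdc20 and Prc1). These 9 entered the test through the groups in which they were high. Counts over the 28, and adjusted p-values of these 9 with the filter, are therefore descriptions. Counts over all 38 without the filter are given beside them, and in that fit all 9 were called lower after Dex than after vehicle. The median absolute difference between the arrays of one group, over all probe sets, was 0.0863 to 0.1001.

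Dexamethasone lowered the D-type cyclins Ccnd1 and Ccnd2 and the growth factor-induced transcription factor Myc, and raised the kinase inhibitor Cdkn1a. It also lowered a set of mitotic and replication genes. Among those tested, the largest measured falls were in Cdk1, Cdkn3, Ccnb2 and Mcm6. Each of these was dim after Dex and entered the test only through arrays without Dex, so the sizes and order of these falls are uncertain. Of the 28 genes tested, 16 were lower and 3 higher after Dex than after vehicle (limma, Benjamini-Hochberg adjusted p under 0.05 over all probe sets tested), against 24.7% lower and 17.2% higher among all probe sets tested. Without the filter, 20 of the 38 genes were lower and 2 higher, against 13.5% and 9.99% of 31042 probe sets. The median difference in log2 level over the 38 genes was -0.33, and 33 of them were below 0, whereas the median over all probe sets was 0.03. In whole liver, fewer cells of a type and less RNA per cell cannot be told apart.

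**Figure D1:**
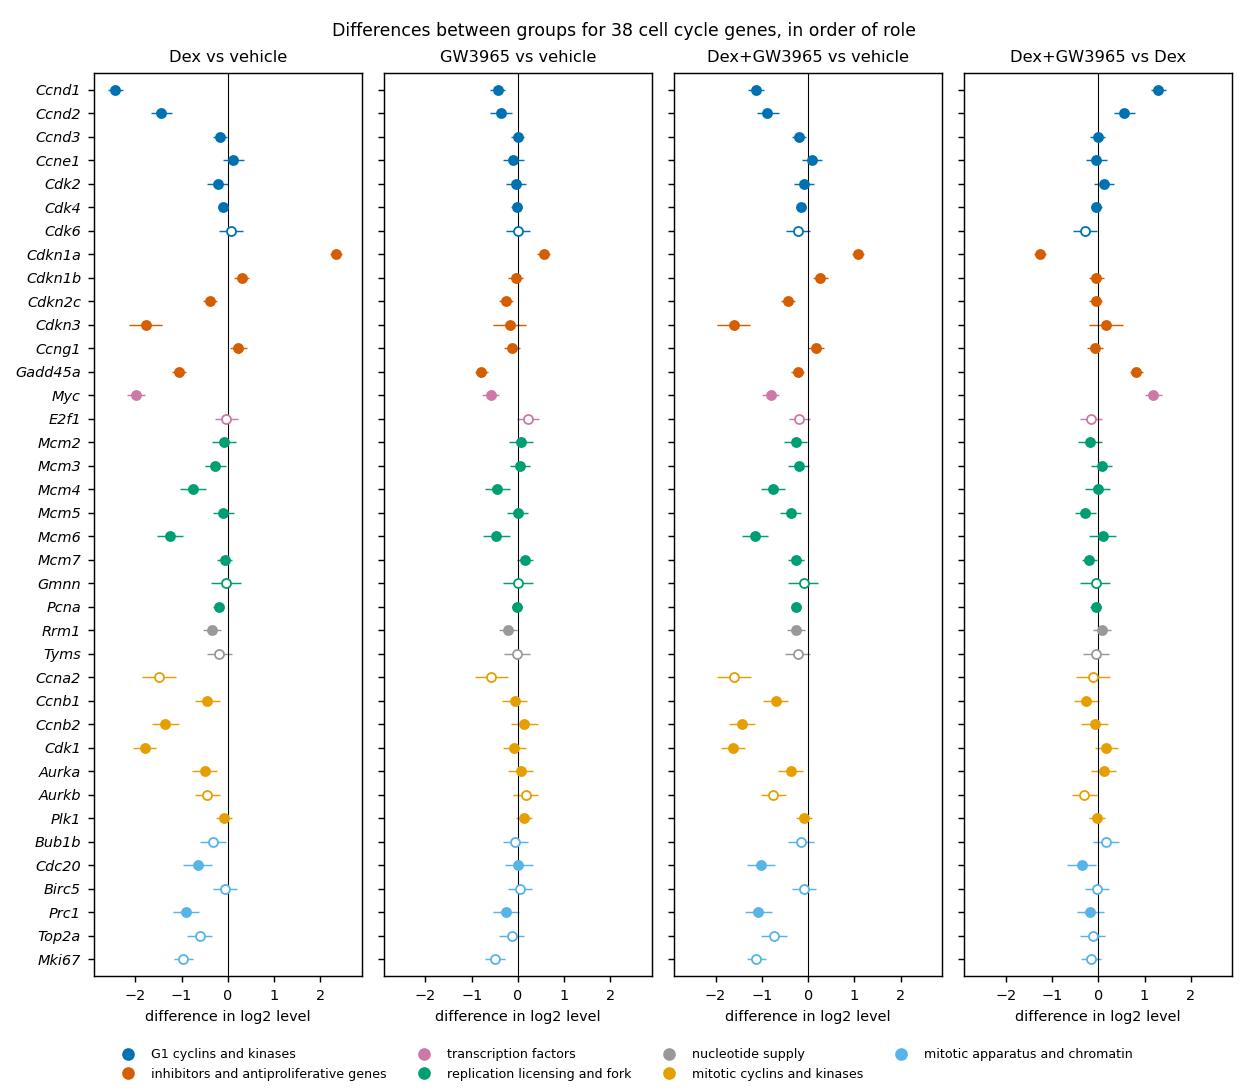
Difference in log2 level between groups (x axis) for the 38 genes (y axis, ordered and coloured by role) in 4 comparisons, from the fit without a filter. Points are limma estimates from 2 arrays a group with 95% intervals, and open points mark the 10 genes that did not pass the filter. Under Dex, 33 of 38 points lie below 0, and in the panel of Dex+GW3965 against Dex the points called are Ccnd1, Ccnd2, Gadd45a and Myc above 0 and Cdkn1a below it.

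Among the G1 cyclins and kinases, 2 of 6 tested genes were lower under Dex and 0 higher, against 24.7% lower and 17.2% higher among all probe sets tested. Without the filter, 2 of 7 were lower and 0 higher, against 13.5% and 9.99% of all probe sets. Counts this small do not set the group apart from the background. Ccnd1, the cyclin whose rise carries resting hepatocytes through G1, stood at 8.99 and 8.94 on the vehicle arrays, 6.66 and 6.40 on the Dex arrays, 8.51 and 8.54 on the GW3965 arrays, and 7.78 and 7.90 on the Dex+GW3965 arrays. The 4 groups did not overlap, and the combination lay between Dex and GW3965. Dex lowered Ccnd1 5.41-fold (log2 difference -2.44, SE 0.08, limma adjusted p = 4.56e-14). GW3965 alone lowered it by less (log2 difference -0.44, SE 0.08, adjusted p = 0.000567). Of its other 2 probe sets, both fell under Dex as well (-1.50 and -1.68 in log2 level), but neither was called under GW3965 alone (-0.26 and 0.07). Ccnd2, a second D-type cyclin, read 7.50 and 7.71 after vehicle, 6.34 and 6.00 after Dex, 7.14 and 7.32 after GW3965, and 6.79 and 6.66 after both. Again no groups overlapped in any pair compared, and Dex lowered it 2.71-fold (log2 difference -1.44, SE 0.11, adjusted p = 9.22e-09). The third D-type cyclin, Ccnd3, was not called (-0.18 in log2 level), and neither were Ccne1 (0.12), Cdk2 (-0.22) and Cdk4 (-0.11), the partners that act later in G1 or bind the D cyclins.

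The transcription factor Myc, which drives ribosome and nucleotide synthesis in growing cells, was at 7.62 and 7.85 after vehicle and at 5.74 on both Dex arrays. It read 7.15 and 7.14 after GW3965 and 6.92 and 6.93 after both agents. Each group was thus apart from the others, with Dex lowest. The Dex difference was 3.97-fold (log2 difference -1.99, SE 0.09, adjusted p = 5.19e-12), and that of GW3965 alone was -0.59 (SE 0.09, adjusted p = 0.000152). E2f1, the other transcription factor of the list, was dim on every array, between 4.76 and 5.22.

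Cdkn1a encodes p21, which inhibits cyclin-dependent kinases and binds PCNA. Its levels were 7.50 and 7.56 after vehicle, 9.93 and 9.80 after Dex, 8.09 on both GW3965 arrays, and 8.64 and 8.59 after the combination. The order of the groups was the reverse of that for Ccnd1 and Myc, with no overlap. Dex raised it 5.04-fold (log2 difference 2.33, SE 0.06, adjusted p = 2.45e-15) and GW3965 raised it 1.47-fold (log2 difference 0.56, SE 0.06, adjusted p = 3e-06). A second probe set of Cdkn1a gave 2.35 for Dex (adjusted p = 5.99e-12) and 0.51 for GW3965 (adjusted p = 0.00273). Gadd45a, a DNA damage-inducible gene whose product restrains CDK1, moved otherwise. It read 9.01 and 9.14 after vehicle, 8.09 and 7.95 after Dex, 8.34 and 8.22 after GW3965, and 8.83 and 8.85 after both. Dex alone lowered Gadd45a 2.07-fold (log2 difference -1.05, SE 0.07, adjusted p = 5.44e-10), and GW3965 alone lowered it 1.73-fold (log2 difference -0.79, adjusted p = 1.34e-07). The level after both agents was the closest of the 3 treated groups to vehicle.

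The remaining inhibitors moved less or were dim. Cdkn1b, which encodes p27, was 0.30 higher in log2 level after Dex (adjusted p = 0.004), a call lost without Dex replicate a (0.19) or when its dimmer second probe set was averaged in (0.07). Cdkn2c, which encodes the CDK4 and CDK6 inhibitor p18, was 0.38 lower (adjusted p = 0.000248), again a call lost on averaging with its second probe set (-0.07). Ccng1, a p53-induced cyclin, was 0.23 higher (adjusted p = 0.0367), a call lost in 6 of 15 limma alternatives. Among these were the fit without the filter (adjusted p = 0.0552) and the fits without either Dex array (0.27 and 0.20) or without vehicle replicate b (0.12). Cdkn3, a phosphatase that acts on CDK1 and CDK2 and whose transcript is most abundant in dividing cells, stood with the mitotic genes. It read 5.76 and 5.47 after vehicle, 5.34 and 5.54 after GW3965, 4.15 and 3.51 after Dex, and 4.07 and 3.94 after both. The groups with Dex lay apart from those without it. The measured Dex difference was -1.78 in log2 level (SE 0.17, adjusted p = 1.28e-07, limma without the filter). With dim means set to the mean of the array medians the difference became -0.12, a lower bound on its size, and this bound is given for the dim genes that follow.

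**Figure D2:**
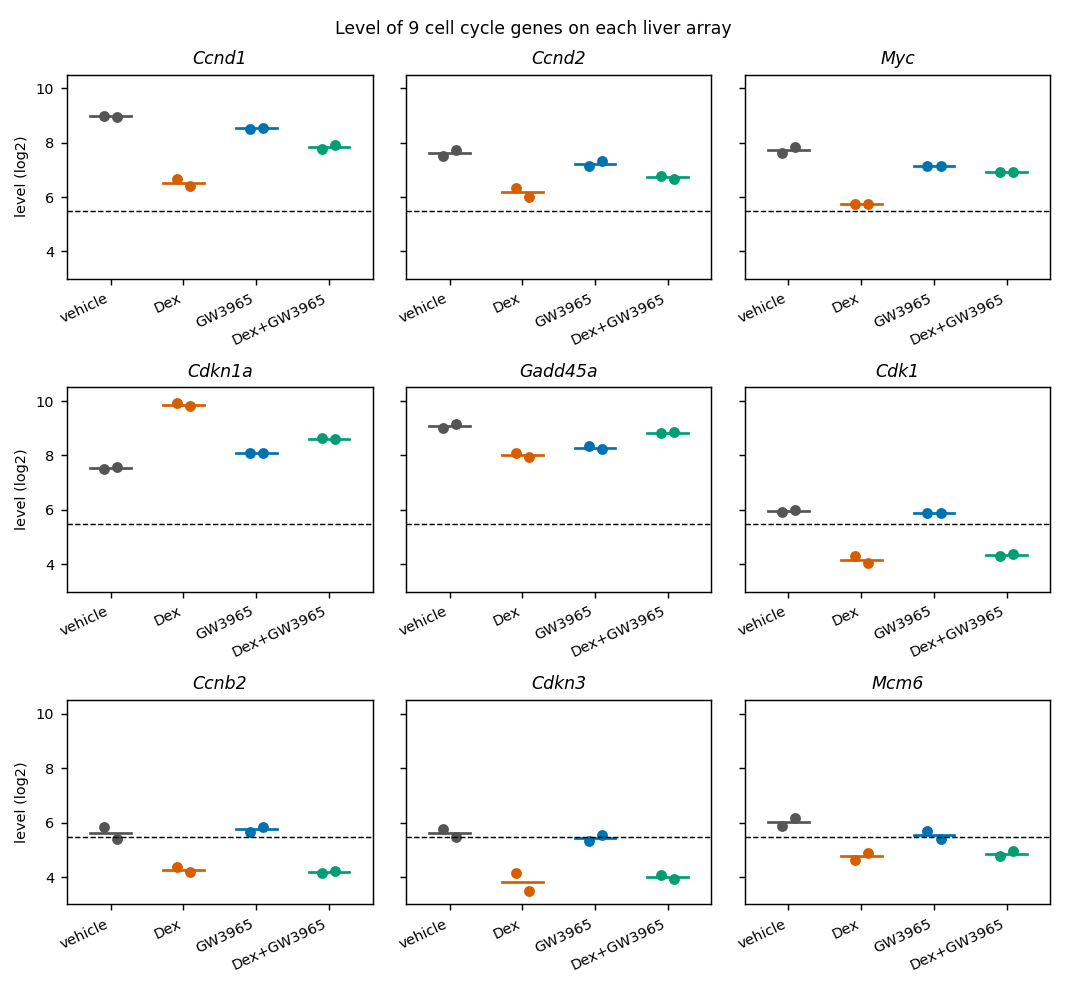
Log2 level (y axis) of 9 genes on each of the 8 arrays (points, 2 a group) with the group mean (bars). The dashed line marks the mean of the array medians at 5.49. Ccnd1, Ccnd2, Myc, Cdkn1a and Gadd45a differ between Dex and Dex+GW3965, whereas Cdk1, Ccnb2, Cdkn3 and Mcm6 are below the dashed line on all 4 arrays with Dex.

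Among the mitotic cyclins and kinases, all 7 genes lay below vehicle after Dex, and without the filter 6 of 7 were called lower, against 13.5% of all probe sets. With the filter 4 of 5 were called, each of which had entered the test through arrays without Dex. Cdk1, the kinase that drives entry into mitosis, read 5.92 and 6.00 after vehicle, 5.89 and 5.87 after GW3965, 4.29 and 4.04 after Dex, and 4.30 and 4.37 after both. Its cyclin partner Ccnb2 read 5.83 and 5.42 after vehicle, 5.67 and 5.86 after GW3965, 4.36 and 4.20 after Dex, and 4.16 and 4.24 after both. In each gene the 4 arrays with Dex lay below the 4 without it by more than 1 log2 unit. Without the filter, the measured Dex differences were -1.80 in log2 level for Cdk1 (SE 0.12, adjusted p = 8.36e-10) and -1.35 for Ccnb2 (SE 0.14, adjusted p = 4.17e-07). Since the levels after Dex were dim, the bounds were -0.47 for Cdk1 and -0.13 for Ccnb2.

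Ccnb1, the other cyclin B, was 0.44 lower in log2 level after Dex (adjusted p = 0.013, and 0.0175 without the filter, bound -0.25). Its call was lost without Dex replicate b (-0.41) or vehicle replicate b (-0.29), while its second probe set was 1.07 lower (adjusted p = 1.13e-05). Aurka, the kinase of spindle poles, was dim on average in every group and read 5.52 and 5.34 after vehicle and 5.00 and 4.85 after Dex. It was called lower (adjusted p = 0.00562, and 0.00706 without the filter), but not without Dex replicate b. Plk1, which acts throughout mitosis, was above the median on all arrays and was not called, with a Dex difference of -0.08 and a 95% interval from -0.25 to 0.10. Ccna2, the cyclin of S phase and early mitosis, was dim on all arrays and entered only the fit without a filter. It read 4.28 and 5.01 after vehicle, 4.26 and 3.89 after GW3965, 3.12 and 3.19 after Dex, and 3.06 and 3.02 after both. The 4 arrays with Dex were the lowest (adjusted p = 1.66e-06 for Dex against vehicle in that fit). Aurkb, the kinase of the chromosomal passenger complex, was called lower in the same fit (4.36 and 4.06 after vehicle, 3.80 and 3.72 after Dex, adjusted p = 0.0152).

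In the mitotic apparatus, Prc1, which bundles microtubules of the central spindle, and Cdc20, an activator of the anaphase-promoting complex, were lower after Dex. Both had entered the filtered test only through arrays without Dex, so values from the fit without the filter are given. Prc1 read 5.57 and 5.60 after vehicle and 4.50 and 4.84 after Dex (log2 difference -0.91, SE 0.13, adjusted p = 3.39e-05, bound -0.09). Cdc20 read 5.82 and 5.87 after vehicle and 5.07 and 5.32 after Dex (log2 difference -0.65, SE 0.14, adjusted p = 0.00221, bound -0.35). The other probe sets of Cdc20 did not follow its brightest one, and the single one among them that was tested differed by -0.17 (adjusted p = 0.325). Mki67, whose product Ki-67 coats mitotic chromosomes, was dim throughout, at 4.22 and 4.18 after vehicle, 3.65 and 3.75 after GW3965, 3.29 and 3.20 after Dex, and 3.13 and 3.03 after both. Without the filter it was called lower under Dex (adjusted p = 5.17e-07), as was Top2a, the topoisomerase that untangles sister chromosomes (5.49 and 5.26 after vehicle, 4.61 and 4.92 after Dex, adjusted p = 0.00137). Bub1b and Birc5, of the spindle checkpoint and the passenger complex, were dim on all arrays and were not called.

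Of the replication genes, all 8 lay below vehicle and 3 of 8 were called lower without the filter, against 13.5% of all probe sets. Among the helicase subunits, Mcm6 and Mcm4 fell under Dex, whereas Mcm2, Mcm3, Mcm5 and Mcm7 were not called, with differences between -0.27 and -0.07 in log2 level. Mcm6 read 5.88 and 6.16 after vehicle, 5.70 and 5.41 after GW3965, 4.65 and 4.88 after Dex, and 4.78 and 4.96 after both. Its arrays with Dex were dim and lay below all others (log2 difference -1.25, SE 0.14, adjusted p = 8.18e-07 without the filter, bound -0.53). Mcm4 was 0.75 lower (adjusted p = 0.000177 without the filter, bound -0.42). Pcna, the sliding clamp of the replication fork, was bright on every array, between 8.78 and 9.06, and was 0.20 lower after Dex (SE 0.05, adjusted p = 0.00459), a difference not called without Dex replicate a. Rrm1, the large subunit of ribonucleotide reductase, was 0.34 lower (adjusted p = 0.00719), a call lost without Dex replicate b. Tyms, which makes thymidylate, and Gmnn, an inhibitor of origin licensing, were dim on all arrays and not called.

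The promoters of the mitotic and replication genes that fell are shown because these genes moved together, and CCAAT boxes, cell cycle homology regions and E2F sites are known elements of cycle-dependent transcription. Windows of 300 bases, from 250 before to 50 after the annotated transcript start, were read from RefSeq sequence (GRCr8) for 30 of the 38 genes. Aurkb, Ccna2, Ccnd1, Ccnd2, Cdk6, E2f1, Mcm4 and Myc had no match. Capitals mark CCAAT (bound by NF-Y), TTTGAA or TTCGAA (the cell cycle homology region) and TTTCGCGC, TTTGGCGC or TTTCCCGC (E2F), on either strand. Cdk1 is at chr20:19265043-19265342 on the plus strand, Ccnb2 at chr8:79981609-79981908 on the minus strand and Mcm6 at chr13:42404303-42404602 on the minus strand, each printed 5′ to 3′ in the direction of transcription.
Cdk1: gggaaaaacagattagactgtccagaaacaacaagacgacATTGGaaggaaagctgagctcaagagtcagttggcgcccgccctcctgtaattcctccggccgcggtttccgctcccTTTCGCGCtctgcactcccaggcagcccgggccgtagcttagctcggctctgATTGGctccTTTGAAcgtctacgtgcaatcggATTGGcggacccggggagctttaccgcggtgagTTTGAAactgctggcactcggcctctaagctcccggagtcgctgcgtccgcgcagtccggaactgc
Ccnb2: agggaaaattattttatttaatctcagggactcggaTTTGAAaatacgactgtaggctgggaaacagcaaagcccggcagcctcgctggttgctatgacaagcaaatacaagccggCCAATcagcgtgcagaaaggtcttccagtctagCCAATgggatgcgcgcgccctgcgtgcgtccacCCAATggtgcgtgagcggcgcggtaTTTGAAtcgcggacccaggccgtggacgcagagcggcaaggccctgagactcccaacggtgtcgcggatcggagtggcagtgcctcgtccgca
Mcm6: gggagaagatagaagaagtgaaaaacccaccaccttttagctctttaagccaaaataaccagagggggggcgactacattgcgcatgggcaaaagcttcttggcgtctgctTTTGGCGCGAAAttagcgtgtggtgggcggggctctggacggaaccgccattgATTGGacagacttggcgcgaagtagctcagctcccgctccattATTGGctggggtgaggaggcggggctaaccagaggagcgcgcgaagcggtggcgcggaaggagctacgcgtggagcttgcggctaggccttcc
Cdk1 held 3 CCAAT matches, 2 of the homology region and 1 of E2F. Ccnb2 held 3 CCAAT matches, the nearest beginning at position -68 from the transcript start, and 2 of the homology region, the nearer beginning at position -43. In Mcm6, 2 E2F matches overlapped each other, since these letters end in a sequence that reads the same on both strands, and 2 CCAAT matches lay closer to the start. Over the 30 windows, 22 held CCAAT (73.3%, against 37.7% of 27457 windows of all genes), 14 the homology region (46.7% against 19.5%) and 8 an E2F match (26.7% against 1.82%). Of the 11 windows of mitotic genes, 9 held CCAAT and 9 the homology region, whereas 1 held an E2F match. By response, E2F matches were in 2 of 14 windows of genes called lower after Dex without the filter (14.3%) and in 6 of 16 windows of the other genes (37.5%), so these matches were not more frequent among the genes that fell. In the same 2 sets, CCAAT was in 12 of 14 (85.7%) and 10 of 16 (62.5%). The homology region was in 8 of 14 (57.1%) and 6 of 16 (37.5%). None of these splits was tested. AGAACA, one arm of a glucocorticoid response element, was in 2 of the 30 windows (6.67% against 20.1%), those of Ccne1 and Plk1. A match is a description of the letters in the window and shows no binding.

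After GW3965 alone, the calls lay among G1 regulators, inhibitors and helicase subunits. Of the 28 tested genes, 7 were lower (Ccnd1, Ccnd2, Myc, Gadd45a, Cdkn2c, Mcm4 and Mcm6) and Cdkn1a alone was higher, against 14.5% lower and 5.93% higher among all probe sets tested. Without the filter, 9 of 38 were lower and 1 higher, against 6.70% and 3.14%. No tested mitotic gene was called on its brightest probe set. Of the dimmer probe sets, one of Ccnb1 was called lower (-0.47, limma adjusted p = 0.0311) and one of Cdc20 higher (0.42, adjusted p = 0.0298). The difference of Cdk1 was -0.08 in log2 level (95% interval -0.35 to 0.18) and that of Ccnb2 was 0.14 (-0.17 to 0.45). The dim genes Ccna2 and Mki67 were called lower without the filter (adjusted p = 0.0396 and 0.00284). Mcm6 was 0.47 lower (adjusted p = 0.0265) and Mcm4 0.45 lower (adjusted p = 0.0234). The calls of Ccnd2 (-0.27) and Mcm4 (-0.36) were lost without vehicle replicate b and without either GW3965 array, that of Mcm6 (-0.33 and -0.32) without vehicle replicate b or GW3965 replicate b, and that of Cdkn2c (-0.21 and -0.20) without GW3965 replicate a or vehicle replicate a. The split over all probe sets was sensitive to scaling, from 963 higher and 2362 lower on the deposited values to 1208 and 1505 after quantile normalization.

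When GW3965 was added to dexamethasone, 5 of the 28 tested genes were called against Dex alone, and these were Ccnd1, Ccnd2, Myc, Gadd45a and Cdkn1a. Ccnd1 was 2.47-fold higher (log2 difference 1.30, SE 0.08, limma adjusted p = 1.3e-09) and Myc 2.27-fold higher (log2 difference 1.18, SE 0.09, adjusted p = 2.98e-08). The other probe sets of Ccnd1 gave smaller differences, 0.59 and 0.87 in log2 level (adjusted p = 0.000179 and 1.08e-05). Gadd45a was 1.77-fold higher (log2 difference 0.82, SE 0.07, adjusted p = 6.45e-08) and Ccnd2 1.48-fold higher (log2 difference 0.56, SE 0.11, adjusted p = 0.00134). Cdkn1a was 2.38-fold lower (log2 difference -1.25, SE 0.06, adjusted p = 5.53e-11). The 4 genes higher and 1 lower of 28 compare with 13.4% and 9.38% of all probe sets tested, so the number called was near the background or below it. The counts were the same over the 38 genes without the filter, where the background was 6.39% higher and 4.58% lower. Each of the 5 calls held in all 15 limma alternatives.

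Of the 21 genes of the replication and mitotic roles, 0 were called in this comparison by limma without the filter. Among all probe sets 6.39% were higher and 4.58% lower, so a count of 0 in 21 is near the background. The differences of the 21 genes ran from -0.36 for Cdc20 to 0.17 for Cdk1 in log2 level. In this fit no 95% interval reached below -0.67 or above 0.44. For Cdk1 the interval was -0.08 to 0.42, for Mcm6 -0.19 to 0.39 and for Ccnb2 -0.38 to 0.21. All 3 were dim in both groups, so a difference hidden by low signal could not be detected.

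The test of the difference itself, the interaction of Dex and GW3965, was called for the same 5 genes and for 2 more. The Dex difference of Ccnd1 was -2.44 in log2 level without GW3965 and -0.69 with it (interaction 1.75, SE 0.11, adjusted p = 3.5e-09). That of Myc was -1.99 without and -0.22 with GW3965 (interaction 1.77, SE 0.13, adjusted p = 1.93e-08), the second no longer called (adjusted p = 0.0666). For Cdkn1a the difference was 2.33 without and 0.53 with GW3965 (interaction -1.81, SE 0.09, adjusted p = 7.64e-11). Gadd45a was the sole gene of the 7 called whose Dex difference was called in opposite directions, -1.05 without and 0.56 with GW3965 (interaction 1.61, SE 0.09, adjusted p = 1.25e-09). Ccnd2 fell by 1.44 without and by 0.50 with GW3965 on the log2 scale (interaction 0.93, SE 0.16, adjusted p = 0.000349).

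Second probe sets gave interactions of 0.85 and 0.80 for Ccnd1 and -1.89 for Cdkn1a. A dimmer probe set of Cdc20 was called at -0.55 (limma adjusted p = 0.0422), whereas its brightest one was not called (-0.38, adjusted p = 0.225). Mcm6 (0.57, adjusted p = 0.05, below the threshold before rounding) and Mcm7 (-0.35, adjusted p = 0.0394) were called as well, but lost the call in 8 of 13 and 8 of 14 limma alternatives. The interaction was thus called above 0 in 5 and below 0 in 2 of 28 genes, against 15.8% and 6.93% of all probe sets tested. Without the filter it was called in 4 and 1 of 38, against 7.67% and 3.96%. The number of genes called was thus near the background. For all probe sets the split was 2571 above and 1127 below 0, and 1843 and 1589 after quantile normalization, which left the counts for these genes at 5 and 2.

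**Figure D3:**
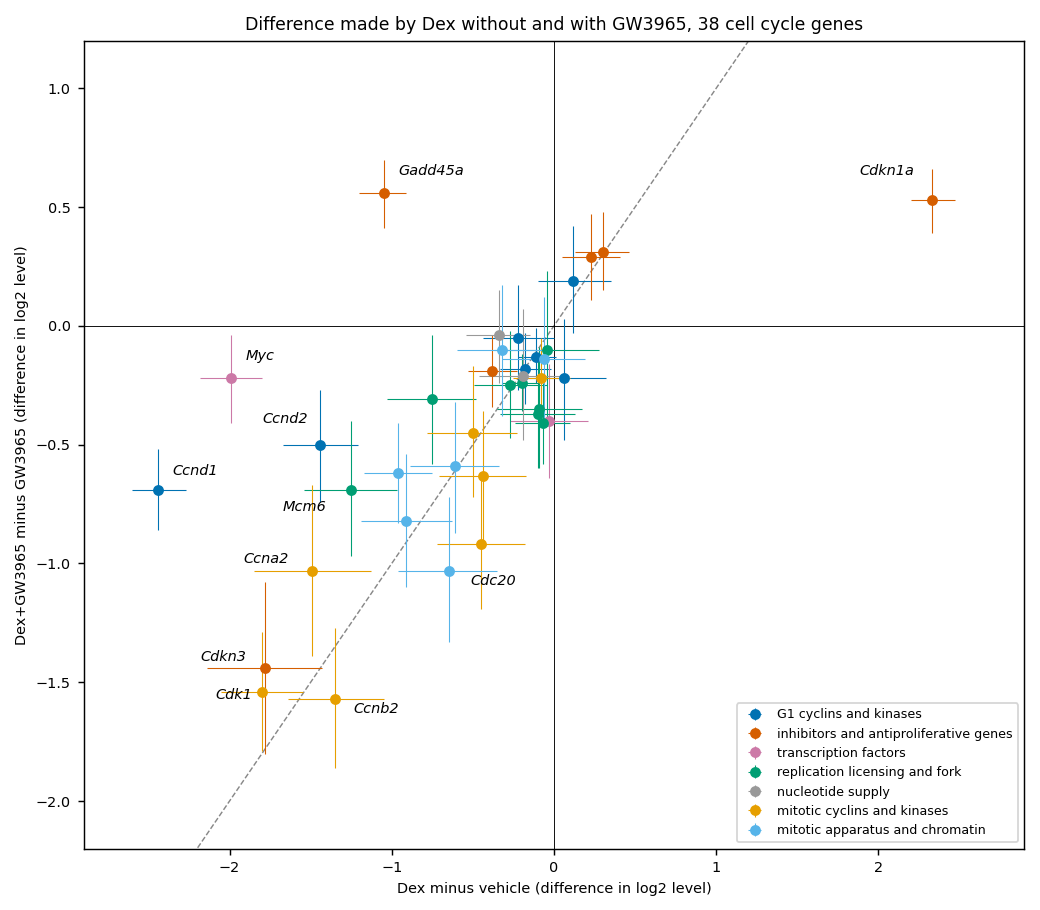
Difference in log2 level of Dex minus vehicle (x axis) and of Dex+GW3965 minus GW3965 (y axis) for the 38 genes, coloured by role, with 95% intervals from the limma fit without a filter. On the dashed line both differences are equal. Ccnd1, Ccnd2, Myc, Gadd45a and Cdkn1a lie off the line, and Cdk1, Cdkn3 and Ccnb2 lie near it at -1.35 or lower on the x axis and -1.44 or lower on the y axis.

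In GW3965-treated liver, Dex lowered 6 of 7 mitotic cyclins and kinases and 4 of 6 genes of the mitotic apparatus in the fit without a filter, and Plk1 (-0.22, adjusted p = 0.0717), Bub1b (-0.10, adjusted p = 0.677) and Birc5 (-0.14, adjusted p = 0.52) were not called. Of 28 tested genes, 15 were lower and 4 higher in Dex+GW3965 than in GW3965, against 16.8% and 19.0% of all probe sets tested, and 18 and 4 of 38 without the filter, against 9.38% and 9.91%. Without the filter, Ccnb2 differed by -1.57 (SE 0.14, adjusted p = 6.92e-08), Cdk1 by -1.54 (SE 0.12, adjusted p = 1.01e-08) and Cdkn3 by -1.44 (SE 0.17, adjusted p = 2.82e-06) in measured log2 level. All 3 were dim in Dex+GW3965, so the bounds were -0.27 for Ccnb2 and -0.39 for Cdk1, and Cdkn3, dim on average in both groups, had none. Cdc20 differed by -1.03 in the same fit (SE 0.14, adjusted p = 2.66e-05, bound -0.36). The genes lower here and the genes lower after Dex against vehicle come from comparisons with no array in common, and without the filter 15 genes were in both lists, which is 75.0% of the 20 and 83.3% of the 18. Over all probe sets the shares were 42.3% and 60.7%. The 15 were Ccnd1, Ccnd2, Cdkn3, Ccna2, Ccnb1, Ccnb2, Cdk1, Aurka, Aurkb, Cdc20, Prc1, Mki67, Top2a, Mcm6 and Pcna. The calls of Cdkn2c and Mcm2 in GW3965-treated liver were lost when any single one of the 4 arrays compared was left out, and those of Mcm5, Aurka and Ccng1 without Dex+GW3965 replicate b or a GW3965 array, whereas the other 14 calls held with each array left out.

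Against vehicle, the combination left 19 of 28 genes lower and 2 higher (Cdkn1a and Cdkn1b), with a background of 21.2% and 15.6%, and without the filter 22 and 2 of 38, with a background of 11.3% and 8.32%. Ccnd1 was 2.19-fold lower (log2 difference -1.13, SE 0.08, adjusted p = 2.46e-09) and Cdkn1a 2.12-fold higher (log2 difference 1.08, SE 0.06, adjusted p = 1.26e-10). Myc remained 0.81 lower in log2 level (adjusted p = 1.24e-06) and Gadd45a 0.23 lower (adjusted p = 0.0111), the latter not called without vehicle replicate b or Dex+GW3965 replicate a. The differences from vehicle were -1.63 for Cdk1, -1.61 for Cdkn3, -1.43 for Ccnb2, -1.15 for Mcm6, -1.08 for Prc1 and -1.02 for Cdc20 in measured log2 level. Their bounds, with dim means set to the mean of the array medians, were -0.47, -0.12, -0.13, -0.53, -0.09 and -0.35 in the same order. These 6 had entered the test only through arrays without Dex. In the limma fit without the filter, the largest adjusted p of the 6 was 2.94e-05, that of Cdc20. The smaller falls of Cdk4, Mcm5, Mcm7, Rrm1 and Aurka and the rise of Cdkn1b were not called without Dex+GW3965 replicate b, and all but that of Aurka were also lost without vehicle replicate b.

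Beyond the 40 genes, a longer list of cell cycle genes held 90 symbols, of which 80 had a probe set and 48 were tested. After Dex, 12 of the 48 were lower and 7 higher, close to the background of 24.7% and 17.2%. Prim1, the catalytic subunit of primase, had the largest difference (8.80 after vehicle, 6.81 after Dex, 7.85 after GW3965 and 6.84 after both, log2 difference for Dex -1.99, adjusted p = 2.2e-13). Mcm10, an initiation factor at origins, moved the other way (6.06 to 7.97, log2 difference 1.91, adjusted p = 1.72e-10). Ube2c, the ubiquitin-conjugating enzyme of the anaphase-promoting complex, went from 6.21 to 4.87 after Dex and was at 4.75 after both agents. Rpa3, of the single-strand binding complex, was 0.62 lower after Dex (adjusted p = 3.43e-06). Against Dex alone, 1 of the 48 was higher in the combination and 5 were lower, against 13.4% and 9.38% of all probe sets tested. These were named after their values were seen. Rpa3 was 0.27 higher (adjusted p = 0.0177). Cdc25b, a phosphatase that activates CDK1, differed by -0.59 (adjusted p = 0.00148) and had an interaction of -1.49. Fen1, a nuclease of the replication fork, differed by -0.52 (adjusted p = 0.00625), Cks1b, a CDK-binding subunit, by -0.30 (adjusted p = 0.000403), E2f4 by -0.20 and the checkpoint gene Bub3 by -0.16. Mitotic and replication genes outside the 40 were thus among those called.

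A list of 31 p53 targets and stress-induced brakes on growth had 26 genes tested, of which 10 were higher and 8 lower after Dex, against 17.2% and 24.7% of all probe sets tested. Rprm, a p53 target linked to G2 arrest, was the gene with the largest difference and was lower with or without GW3965 (7.97 after vehicle, 5.82 after Dex, 7.95 after GW3965, 5.95 after both). Cebpb, a transcription factor of the liver's acute and regenerative responses, was 1.23 higher in log2 level after Dex (adjusted p = 3.96e-12) and 0.90 lower after the combination than after Dex (adjusted p = 1.52e-09). Tp53inp1, a p53 target, was also highest after Dex (4.99 after vehicle, 6.35 after Dex, 5.07 after GW3965, 5.19 after both), whereas Plk2, a p53-induced kinase, was lowest there (9.06, 7.80, 8.39 and 8.19 in the same groups). The direction of this list was therefore mixed, although Cdkn1a, a p53 target itself, rose.

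Some lists of markers of other liver cells were lowest in the groups with Dex, as were the mitotic genes, and other lists were not. The part of these cells in the results was not tested. Of the T and NK cell markers, 7 of 10 were below the array median on all arrays (Cd3e, Cd3d, Cd3g, Cd2, Cd8a, Nkg7 and Klrb1a), and the summed linear signal of the 10 was 480 to 481 after vehicle, 352 to 353 after Dex, 434 to 439 after GW3965 and 355 to 358 after both. For 3 B and plasma cell markers the sums were 422 to 452, 169 to 186, 317 to 337 and 203 to 212 in the same order, so that both lymphocyte lists were lowest in the groups with Dex, as were the mitotic genes. Both lymphocyte lists also lay below vehicle after GW3965 alone, by less than after Dex. Neutrophil markers were about as low after GW3965 as after Dex (sums of 4 markers, with Csf3r and Cxcr2 dim on all arrays, 235 to 237, 80.2 to 87.6, 77.6 to 84.3 and 106 to 109). Of 9 Kupffer cell markers, 5 were lower and 1 higher after Dex, with sums of 4930 to 5020, 4330 to 4370, 6500 to 6520 and 4610 to 4700. For this count and those of the lists that follow, the background after Dex was 24.7% lower and 17.2% higher among all probe sets tested. Counts over so few markers were not tested against it. Stellate cell markers (8 genes) included 6 that were lower and 1 that was higher, with sums of 5210 to 5270, 3130 to 3220, 4120 to 4220 and 3010 to 3040. The stellate sums also lay below vehicle after GW3965 alone, by less than after Dex. Of 6 sinusoidal endothelial markers, 4 were lower, with sums of 3770 to 3830, 3060 to 3080, 3750 to 3760 and 2650 to 2680, so that both of these lists were also lowest with Dex. Erythroid sums were 11600 to 12400, 12200 to 12400, 17800 to 18700 and 8760 to 8930, and cholangiocyte sums were 343 to 357, 279 to 300, 282 to 300 and 461 to 480. The 7 hepatocyte markers, which were bright on every array, gave sums of 111000 to 119000 over the 8 arrays, with 2 lower and 1 higher after Dex.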

How the data were processed

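Liver RNA (5 µg) was hybridised to 8 rat arrays. The authors deposited log2 expression values per probe set. Per the labels, MAS5 was used, and the methods state that probes were mapped again to UniGene and that perfect-match signals were used after MAS background subtraction, so values depend on that mapping, and dim values on the background. Annotation named 1 symbol for 20826 of 31042 probe sets (57 controls removed), several for 436 and none for 9780. The members and gene lists were chosen with earlier results of these data known.

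limma 3.58.1 (R 4.3.3) was fitted to all 8 arrays with a group means model and an intensity trend (4 residual and 12.7 prior degrees of freedom), in place of the methods' one-sample t-test, which has too few arrays. Probe sets had to exceed their array's median on 2 arrays. Genes were called at 0.05 after Benjamini-Hochberg adjustment across the 16253 kept, and fits without the filter used all 31042. Intervals are 95% and unadjusted. Named were all members, in full where a called change reached 2-fold, and up to 4 genes of each further list by size of change. A bound on a difference sets dim means to 5.49. The scripts were tested on simulated data. The number of arrays limits precision.

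Alternatives were quantile normalization, other filters, no trend, fewer arrays, a replicate block, averaged probe sets and the methods' t-test. The deviations of arrays with the same letter correlated at -0.232 to 0.083 between groups, so the letters were not taken to pair arrays.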

Additional observations from a re-analysis of the deposited data

Results flagged for a closer look

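Whether the Dex difference depended on GW3965 was tested by the interaction term (difference of Dex+GW3965 minus GW3965, less that of Dex minus vehicle, in log2 level). It was called for 7 of the 28 genes, above 0 in 5 and below 0 in 2, against 15.8% and 6.93% of all probe sets tested. These counts were near the background. Ccnd1 had 1.75, Myc 1.77, Gadd45a 1.61 and Ccnd2 0.93, where the Dex difference was less negative with GW3965 or, in Gadd45a, above 0. Cdkn1a had -1.81, where the rise was smaller with GW3965. Mcm6 had 0.57 and Mcm7 had -0.35, and both were close to the threshold. Groups of 2 arrays are too small for a search for single arrays that stand apart.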

How the results depend on the processing

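Of the calls on single genes, those kept under every limma alternative were 12 of 19 for Dex against vehicle, 4 of 8 for GW3965 against vehicle, 13 of 21 for Dex+GW3965 against vehicle, 5 of 5 for Dex+GW3965 against Dex, 13 of 19 for Dex+GW3965 against GW3965 and 5 of 7 for the interaction. A filter on the mean signal left 10, 12 and 11 genes changed for Dex against vehicle, Dex+GW3965 against vehicle and Dex+GW3965 against GW3965. Of the 28 genes, it removed from the test the 9 that exceeded the median only on arrays without Dex. For Dex against vehicle, 7 of the genes left were lower and 3 higher. Among the 15532 probe sets that passed this filter, 3870 were lower and 2715 higher. The methods' t-test at an unadjusted p under 0.05 gave 11 genes for Dex against vehicle and 11 for Dex+GW3965 against GW3965, and after Benjamini-Hochberg adjustment it gave 0 in all 5 comparisons, with 1 degree of freedom. With each array left out in turn, the counts of genes changed ran from 15 to 19 for Dex against vehicle, 5 to 8 for GW3965 against vehicle (5 without either GW3965 array or vehicle replicate b), 14 to 21 for Dex+GW3965 against vehicle, 5 to 7 for Dex+GW3965 against Dex, 13 to 20 for Dex+GW3965 against GW3965 and 5 to 8 for the interaction; the lone array left in a group was assumed to vary like the others. Averaging the probe sets of a gene turned the direction of Cdkn1b for Dex+GW3965 against vehicle (-0.08) and of Cdkn2c for Dex+GW3965 against GW3965 (0.01), each with a dimmer second probe set. With the replicate block, counts were 19, 8, 21, 5, 18 and 6 in the order of comparisons above, and the calls lost were Cdkn2c for Dex+GW3965 against GW3965 (adjusted p = 0.0553) and the Mcm6 interaction (adjusted p = 0.0523); it changed no other call.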
